A study of Homo sapiens with 16 samples.

Results

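The data describe 10 core genes of the NRF2 pathway, the antioxidant defence of the cell, in LN229, an established human glioblastoma line. The genes were given by name as NFE2L2, KEAP1, HMOX1, NQO1, GCLM, GCLC, TXNRD1, SRXN1, SQSTM1 and OSGIN1, and the list sets no threshold on a measured value. All 10 are among the 13475 genes that both deposited expression tables hold, out of 13559 in the table of the first experiment and 14024 in that of the second. RNA was sequenced from 16 libraries in 8 groups of 2. In the first experiment untreated cells were grown in regular culture, a complete medium with 10% fetal bovine serum, or in ischemic culture. Ischemic culture joins hypoxia with a medium lower in glucose, glutamine and serum, and the parts of these cannot be told apart here. In the second experiment both cultures received DMSO (the solvent), VX745 (an inhibitor of the stress kinase p38α) or MK25 (an inhibitor of MK2, a kinase that p38α activates). All groups are the same line, and the labels of these libraries name no transgene, dose or time. Each value is a log2 normalized CPM (reads of a gene scaled to a common library size), and a log2 difference of 1 is a 2-fold change.

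NRF2, the protein of NFE2L2, is a transcription factor that the cell makes and destroys continuously. Its adaptor KEAP1 hands it to a ubiquitin ligase built on CUL3, and oxidants or electrophiles that modify KEAP1 let NRF2 escape, enter the nucleus and bind antioxidant response elements together with a small MAF protein. BACH1 competes for the same elements and represses them. SQSTM1 encodes p62, an autophagy receptor that binds KEAP1 and draws it into autophagosomes, and SQSTM1 is itself a target of NRF2. Because NRF2 is controlled mainly through the stability of its protein, mRNA levels do not report its activity directly.

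The letters that NRF2 reads were searched in the promoters of the 10 genes, since they are what the members have in common by function. The core of the antioxidant response element, TGACNNNGC on either strand, lay within 1000 bases upstream of the start of the MANE transcript in 6 of 10 members, against 32.6% of 19059 promoters of protein-coding genes. Within 250 bases it lay in 2 of 10 (GCLM and TXNRD1), against 11.4%. One stretch is shown for each of the 6 genes, with the element in capitals and read on the strand that spells it 5′ to 3′ (GRCh38).
GCLM: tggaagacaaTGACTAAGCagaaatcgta
TXNRD1: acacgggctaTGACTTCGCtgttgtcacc
SQSTM1: ggcctggccaTGACTCAGCaatatcctca
NQO1: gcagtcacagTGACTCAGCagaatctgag
OSGIN1: agacaatctgTGACTTGGCcccagttttc
GCLC: aaatatgtgtTGACAGAGCaatgacctgt
These stretches lie upstream of the first exon of the MANE transcript, and that of SQSTM1 lies within the wider span of the gene given below, which other transcripts reach. That of GCLM is at chr1:93909446-93909474 (+), with the element at -34 to -26 from the start, and that of TXNRD1 is at chr12:104215670-104215698 (+), at -99 to -91. That of SQSTM1 is at chr5:179820543-179820571 (-), at -352 to -344, and that of NQO1 is at chr16:69726997-69727025 (-), at -455 to -447. That of OSGIN1 is at chr16:83952673-83952701 (+), at -557 to -549, and that of GCLC is at chr6:53545953-53545981 (+), at -870 to -862. In 2 of the 6 stretches, those of SQSTM1 and NQO1, the element also holds TGANTCA, the letters read by AP-1.

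The letters were not found upstream of NFE2L2, KEAP1, HMOX1 or SRXN1 in this window. The best known elements of HMOX1 lie in distal enhancers, outside it. ACGTG, the core read by hypoxia-inducible factors, lay within 1000 bases of 4 of 10 members (GCLM, HMOX1, NFE2L2 and SRXN1), against 51.9% of promoters, and within 250 bases of 1 of 10, HMOX1, against 20.5%. In each of these 4 genes a match is inside CACGTG, an E-box that other factors read too. GCLM and NFE2L2 also hold matches outside CACGTG, and HMOX1 and SRXN1 do not. TGATGNAA, the core of the composite element of the stress factors ATF4 and CHOP, was found within 1000 bases of 0 of 10 members, against 11.3% of promoters. A match to such letters describes the sequence and does not show that a factor was bound.

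By their RefSeq annotation (GRCh38.p14), the regulators NFE2L2 (Entrez 4780), KEAP1 (9817) and SQSTM1 (8878) span chr2:177230303-177264727, chr19:10486125-10503356 and chr5:179806393-179838078. HMOX1 (3162), NQO1 (1728) and OSGIN1 (29948) span chr22:35381096-35394207, chr16:69709401-69726560 and chr16:83953240-83966332. GCLM (2730), GCLC (2729), TXNRD1 (7296) and SRXN1 (140809) span chr1:93885199-93909430, chr6:53497341-53545101, chr12:104215779-104350307 and chr20:646615-653200. The kit named in the labels does not mark the strand. Exons of MRNIP, on the opposite strand, share 55.7% of the exon bases of SQSTM1. Another gene model on the same strand shares 90.7% of those of SRXN1. Noncoding genes on the opposite strand share 22.8% of those of NQO1, 7.8% of those of NFE2L2 and 6.7% of those of GCLC. Reads in these shared bases cannot be told apart. MRNIP itself was measured between 2.17 and 3.28 on the log2 CPM scale in the 16 libraries, and SQSTM1 between 8.51 and 10.95.

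The depth ran from 20122017 reads on listed genes in regular MK25 replicate 1 to 37562668 in ischemic MK25 replicate 1. No member had fewer than 246 reads in any library, and the values with 3 reads, taken as the floor of detection, lie at or under -2.16. Counting error alone would give a chi-square near 1 for each gene between replicates, and it was 3.29 to 9.34, above sampling noise. Nothing in the labels says that replicates came from separate cultures, so the p-values measure the spread between these libraries, which may be technical. Of 8 genes that hypoxia is known to induce, 8 rose in ischemic culture in both experiments. Of 6 markers of the line 5 were listed, and each stood at 7.98 or more on the log2 CPM scale. Of 4 glial markers, GFAP stood between -0.36 and 1.06, OLIG2 between 0.94 and 3.09, SOX2 between 3.13 and 6.48 and S100B between 4.54 and 5.47. Of 4 endothelial markers 0 were listed, and of 6 immune markers 2 and 3. CD68 stood between 4.47 and 6.01 and ITGAM between -2.03 and 1.72. CSF1R, listed in the second experiment only, stood between -0.95 and 0.50. Of 4 neuronal markers 3 were listed (TUBB3 between 8.24 and 9.24, SYT1 between 3.69 and 6.31, SNAP25 between 1.47 and 2.51). In bulk RNA, more transcript per cell and more cells with the transcript cannot be told apart.

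Below, a gene is said to rise or fall where its adjusted p in limma is under 0.05 (Benjamini-Hochberg over all genes of the table), and it is called where it also changed by at least 1.5-fold. In regular untreated cells, the level per kilobase of transcript was highest for SQSTM1, with a mean log2 CPM per kilobase of 7.01. NQO1 (5.78), TXNRD1 (5.68), NFE2L2 (5.50), SRXN1 (5.35) and KEAP1 (4.98) followed on that scale. GCLM (3.30), GCLC (3.22), HMOX1 (2.70) and OSGIN1 (2.58) were lowest. In ischemic untreated cells SQSTM1 stood at 8.72 and TXNRD1 at 6.74 on the per-kilobase scale, while HMOX1 at 4.60 and OSGIN1 at 4.28 had passed GCLC at 3.06 and GCLM at 2.25. The 10 genes held 0.120% and 0.119% of all reads in the 2 regular untreated libraries and 0.217% and 0.228% in the 2 ischemic ones.

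**Figure D1:**
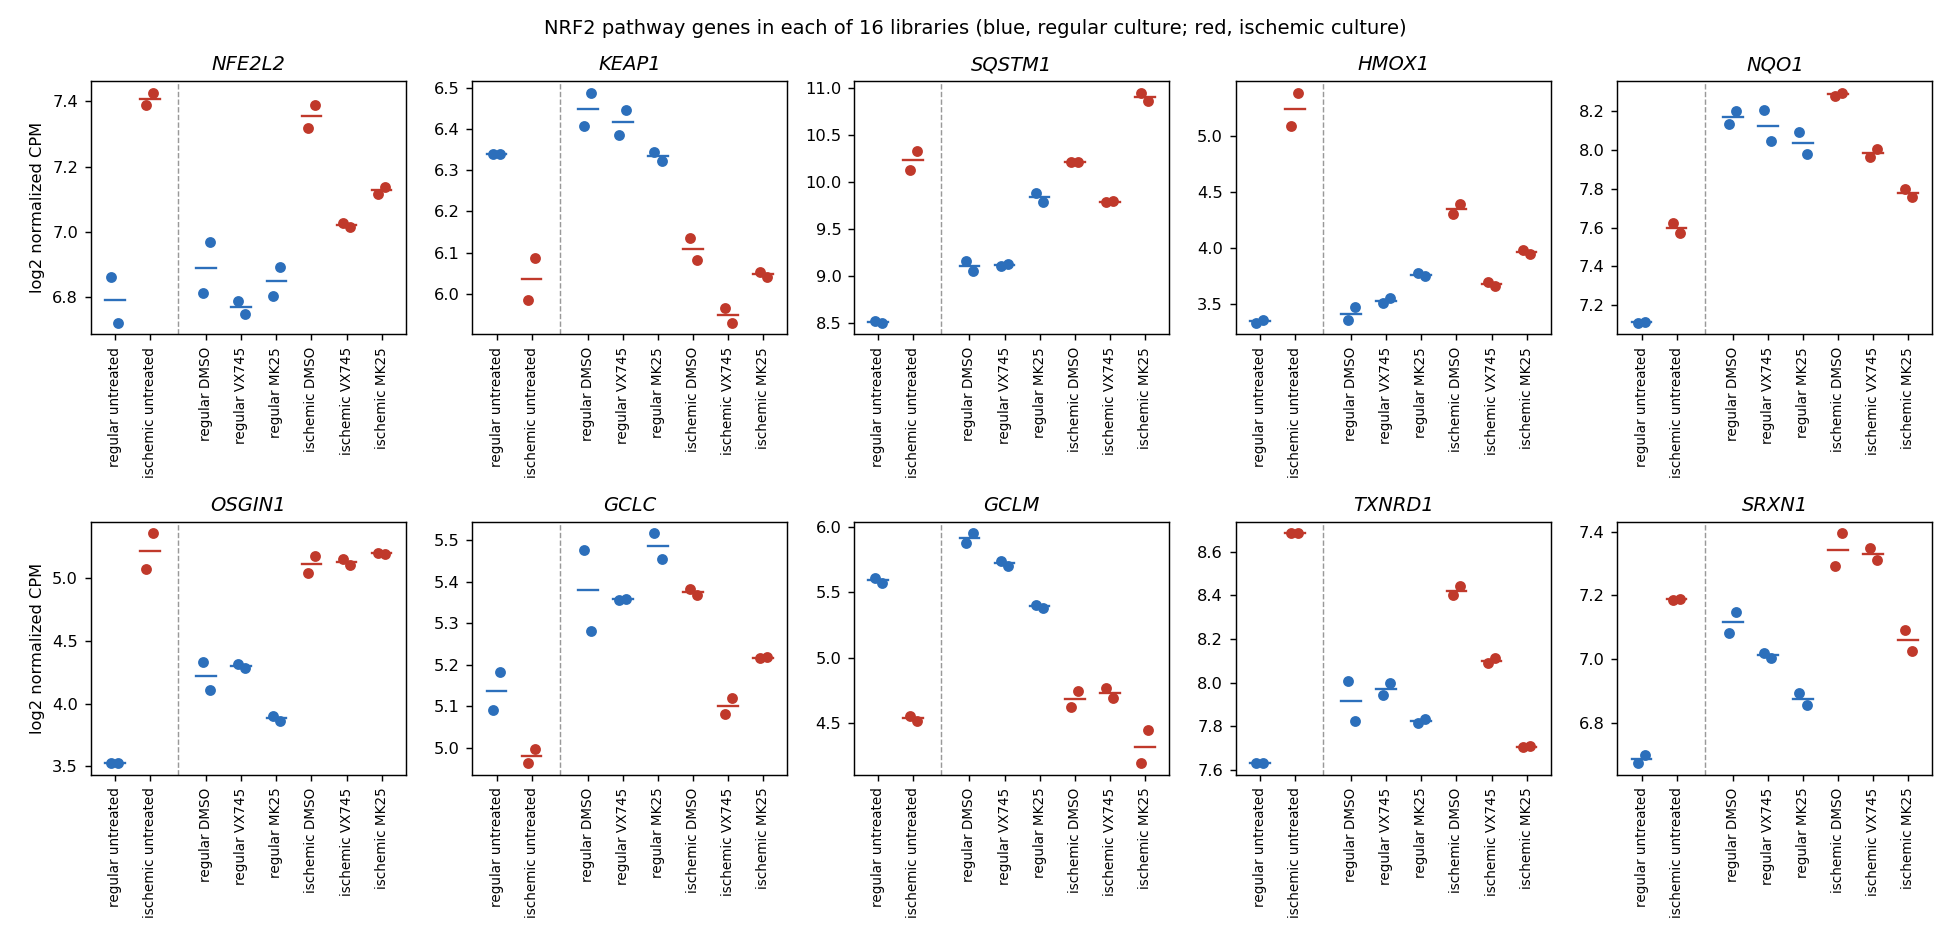
Level of each of the 10 genes in each of the 16 libraries (points, log2 normalized CPM) with the group mean (line). The dashed line parts the first experiment (left) from the second (right), which were normalized separately. SQSTM1 was highest in the 2 ischemic MK25 libraries, at 10.95 and 10.86, and HMOX1 in the 2 ischemic untreated libraries, at 5.09 and 5.39.

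The first question was how the pathway changed in ischemic culture. In untreated cells 5 members were called higher (HMOX1, SQSTM1, OSGIN1, TXNRD1 and NFE2L2) and 1 lower (GCLM), where 21.3% and 20.2% of all 13559 genes were called higher and lower. With DMSO, 3 were called higher (SQSTM1, HMOX1 and OSGIN1) and 1 lower (GCLM), where 18.1% and 17.9% of 14024 genes were called. At any size, 9 of 10 members passed the adjusted p in untreated cells and 8 of 10 with DMSO, beside 70.4% and 69.6% of all genes. The median log2 fold change of the members was 0.56 in untreated cells and 0.35 with DMSO, and the median of all genes was -0.01 in both. The comparisons of the 2 experiments rest on separate libraries, and whether a change differed in size between them was not tested.

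Other genes moved with the ischemic groups. Of the 5 line markers listed, VIM was called higher (log2 1.38 and 1.27) and NES lower (log2 -1.36 and -1.06) in untreated cells and with DMSO. The other 3 were not called. With MK25 against DMSO in ischemic culture ANXA1 was called lower (log2 -0.65). With VX745 against DMSO in ischemic culture the glial marker OLIG2 was called higher. Of the 4 glial markers 4 were called lower in untreated cells and 2 with DMSO, SOX2 by -3.11 and -2.23 on the log2 scale, and their summed CPM was 142 in regular and 35.9 to 40.6 in ischemic untreated libraries, and 110 to 111 and 48.4 to 50.4 with DMSO. Of the neuronal markers SYT1 rose by 2.58 and 2.02 and TUBB3 by 0.30 and 0.57, while SNAP25 changed by -0.47 and -0.24 and did not pass. The summed CPM was 319 to 322 in regular and 440 to 472 in ischemic untreated libraries, and 421 to 434 and 668 to 671 with DMSO. Of the immune markers CD68 rose by 0.77 and 0.94, and ITGAM by 1.11 and 1.36. ITGAM also rose by 1.33 with MK25 against DMSO in ischemic culture. CSF1R, listed in the second experiment only, did not pass with DMSO (log2 -0.16). The summed CPM of the immune markers was 22.4 to 23.6 in regular and 36.8 to 42.0 in ischemic untreated libraries. With DMSO it was 31.3 to 35.3 and 62.9 to 63.2. PTPRC, which defines leukocytes, was not listed.

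Of 6 mitochondrial and ribosomal transcripts taken as signs of RNA quality, 0 were called higher and 2 lower in untreated cells, and 3 higher and 2 lower with DMSO. MT-ND1 fell by 1.65 and 1.89 and MT-ATP6 by 2.24 and 0.94 on the log2 scale. Their summed CPM was 12530 to 13374 in regular and 10149 to 10327 in ischemic untreated libraries, and 12075 to 13705 and 13755 to 14818 with DMSO. The part of these genes in the changes of the members was not tested.

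Of the regulators, NFE2L2 stood at 7.39 and 7.43 in the ischemic untreated libraries and at 6.86 and 6.72 in the regular ones (log2 CPM, replicates 1 and 2). The ischemic libraries were both higher than the regular ones, with a log2 fold change of 0.62 (SE 0.071, adjusted p = 7.37e-06), which is 1.53-fold. Without regular replicate 2 the log2 fold change was 0.55, and NFE2L2 was no longer past the fold threshold, nor was it with library medians made equal (log2 0.57) or after quantile normalization (log2 0.51). In the DMSO groups it stood at 7.32 and 7.39 in the ischemic and at 6.81 and 6.97 in the regular libraries. There it also rose, by 0.46 on the log2 scale (SE 0.060, adjusted p = 2.15e-06), less than 1.5-fold.

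KEAP1, the repressor of NRF2, moved the other way. Its log2 CPM was 5.98 and 6.09 in the ischemic untreated libraries and 6.34 in both regular ones. With DMSO it was 6.13 and 6.08 in the ischemic and 6.41 and 6.49 in the regular libraries. The ischemic libraries were the lower ones in both experiments with no overlap, and KEAP1 fell by 0.30 (SE 0.073, adjusted p = 0.00253) and by 0.34 (SE 0.056, adjusted p = 3.95e-05) on the log2 scale, under 1.5-fold each time.

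SQSTM1, the receptor that binds KEAP1, was the member with the most reads. It stood at 10.13 and 10.33 log2 CPM in the ischemic untreated libraries and at 8.53 and 8.51 in the regular ones, a rise of 3.28-fold (log2 1.71, SE 0.077, adjusted p = 1.6e-09). With DMSO it stood at 10.22 and 10.21 against 9.16 and 9.05, a rise of 2.15-fold (log2 1.11, SE 0.058, adjusted p = 2.07e-11), or by 0.69 on the log2 scale after quantile normalization. Neither pair of groups overlapped. MRNIP, whose exons overlap it, also rose, by 0.68 (SE 0.147, adjusted p = 0.00123) and 0.63 (SE 0.119, adjusted p = 0.000148) on the log2 scale. SQSTM1 held 33.2% of the reads on the 10 members in each regular untreated library, and 50.3% and 53.3% in the ischemic ones.

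Of the target genes, HMOX1, which encodes the inducible heme oxygenase that breaks down heme, changed most in untreated cells. It stood at 5.09 and 5.39 log2 CPM in the ischemic and at 3.33 and 3.35 in the regular untreated libraries, 3.73-fold higher (log2 1.90, SE 0.113, adjusted p = 2.12e-08). The DMSO libraries had it at 4.30 and 4.39 against 3.35 and 3.46, 1.92-fold higher (log2 0.94, SE 0.088, adjusted p = 4.32e-08). The regular libraries of the 2 experiments were alike in level while the ischemic ones were not, but the tables were normalized separately and this was not tested. The summed CPM of the 8 hypoxia genes moved with these groups, from 1444 to 1482 in regular untreated libraries to 6773 to 7761 in ischemic ones, and from 1722 to 1992 in regular DMSO to 7128 to 7228 in ischemic DMSO. Their part in the rise of HMOX1 and SQSTM1 was not tested.

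OSGIN1, an oxidative stress induced growth inhibitor, stood at 5.08 and 5.36 log2 CPM in the ischemic untreated libraries and at 3.52 in both regular ones. In the second experiment it stood at 5.04 and 5.18 with DMSO against 4.34 and 4.11. It rose 3.24-fold (log2 1.69, SE 0.110, adjusted p = 4.41e-08) and 1.85-fold (log2 0.89, SE 0.083, adjusted p = 3.74e-08), with no overlap of the groups in either experiment.

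NQO1, the quinone reductase often used as a readout of NRF2, changed by less than 1.5-fold. It stood at 7.62 and 7.57 log2 CPM in the ischemic and at 7.11 in both regular untreated libraries, and rose 1.40-fold (log2 0.48, SE 0.065, adjusted p = 2.73e-05). The DMSO libraries had it at 8.28 and 8.30 against 8.14 and 8.20, and the difference of 0.12 on the log2 scale (SE 0.059) did not pass the test (adjusted p = 0.0835) and turned to -0.13 after quantile normalization.

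Glutamate-cysteine ligase, which makes the first step of glutathione synthesis, has 2 subunits. GCLM, the modifier subunit, stood at 4.56 and 4.52 log2 CPM in the ischemic and at 5.61 and 5.57 in the regular untreated libraries. In the DMSO groups it stood at 4.62 and 4.75 against 5.88 and 5.95. The ischemic libraries were far below the regular ones in both experiments, and GCLM fell 2.08-fold (log2 -1.05, SE 0.082, adjusted p = 2.29e-07) and 2.35-fold (log2 -1.23, SE 0.081, adjusted p = 4.1e-10). Its promoter holds the element nearest to a start among the sequences above.

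GCLC, the catalytic subunit, stood at 4.96 and 5.00 log2 CPM in the ischemic and at 5.09 and 5.18 in the regular untreated libraries. The log2 fold change of -0.16 (SE 0.084) did not pass (adjusted p = 0.111). It passed under 2 of 6 other settings, with an adjusted p down to 0.047. With DMSO it stood at 5.38 and 5.37 against 5.48 and 5.28. Here the groups overlapped, and the log2 fold change was -0.00 (SE 0.070, adjusted p = 0.966).

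Of the thioredoxin branch, TXNRD1, the cytosolic thioredoxin reductase, stood at 8.68 log2 CPM in both ischemic and at 7.63 in both regular untreated libraries. It rose 2.07-fold (log2 1.05, SE 0.063, adjusted p = 2.26e-08). With DMSO it stood at 8.40 and 8.44 against 8.01 and 7.83, and rose 1.42-fold (log2 0.50, SE 0.058, adjusted p = 5.83e-07). The 2 regular DMSO libraries lay apart by more than the ischemic ones, and without regular DMSO replicate 1 the log2 fold change was 0.60, past 1.5-fold, while after quantile normalization it was 0.26.

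SRXN1, sulfiredoxin, which restores overoxidized peroxiredoxins, stood at 7.19 log2 CPM in both ischemic and at 6.67 and 6.70 in the regular untreated libraries. With DMSO it stood at 7.29 and 7.39 against 7.08 and 7.15. It rose 1.42-fold (log2 0.50, SE 0.066, adjusted p = 2.2e-05) and 1.17-fold (log2 0.23, SE 0.055, adjusted p = 0.00134), and the second rise missed the threshold after quantile normalization (log2 0.12).

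**Figure D2:**
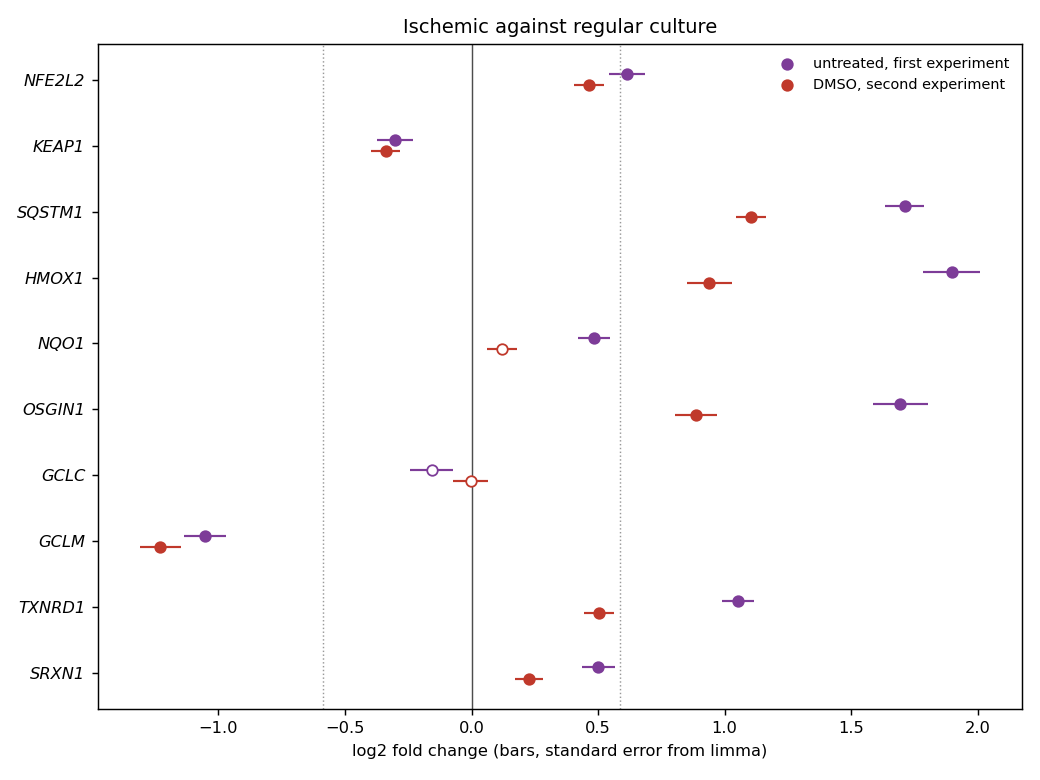
Log2 fold change of ischemic against regular culture for the 10 genes in untreated cells and with DMSO (points; bars, standard error; 2 libraries per group). Filled points passed an adjusted p of 0.05, and dotted lines mark 1.5-fold. GCLM is at -1.05 and -1.23 and SQSTM1 at 1.71 and 1.11.

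The second question was what the inhibitors did in ischemic culture. Against DMSO, VX745 left 1 of 10 members called, HMOX1, which was lower, where 0.906% of all 14024 genes were called lower and 4.35% higher. At any size 7 of 10 members fell and none rose, beside 14.9% of all genes that fell and 14% that rose. MK25 had 2 members called in ischemic culture, SQSTM1 higher and TXNRD1 lower, where 7.02% of genes were called higher and 2.65% lower. At any size 6 fell and 1 rose, beside 22% and 19.8% of all genes. The median log2 fold change of the members was -0.29 with VX745 and -0.26 with MK25, and of all genes 0.00 with each. Both inhibitors were compared with the same 2 DMSO libraries.

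HMOX1 stood at 4.30 and 4.39 log2 CPM in the ischemic DMSO libraries, at 3.69 and 3.66 with VX745 and at 3.98 and 3.94 with MK25. The 3 groups did not overlap, with VX745 lowest. HMOX1 fell 1.59-fold with VX745 (log2 -0.67, SE 0.088, adjusted p = 3.79e-05) and 1.31-fold with MK25 (log2 -0.38, SE 0.088, adjusted p = 0.00224). The summed CPM of the 8 hypoxia genes was 7128 to 7228 with DMSO, 5615 to 5665 with VX745 and 6347 to 6537 with MK25, in the same order as HMOX1. Gene by gene, 6 of the 8 fell with VX745 and 0 were called. With MK25 0 of the 8 fell, and 1, EGLN3, was called higher. The part of these genes in the change of HMOX1 was not tested.

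SQSTM1 parted the inhibitors. It stood at 10.22 and 10.21 log2 CPM with DMSO, at 9.79 and 9.80 with VX745 and at 10.95 and 10.86 with MK25 in ischemic culture. It fell with VX745, by 0.42 on the log2 scale (SE 0.058, adjusted p = 6.39e-05) or by 0.18 after quantile normalization, and rose 1.61-fold with MK25 (log2 0.69, SE 0.058, adjusted p = 1.32e-07). Set directly against VX745, MK25 gave 2.16-fold more SQSTM1 mRNA (log2 1.11, SE 0.058, adjusted p = 6.88e-10), the only member called of 10 in that comparison, where 1.75% of all genes were called higher and 2.2% lower. In the ischemic MK25 libraries SQSTM1 held 69.2% and 68.0% of the reads on the members. The overlapping MRNIP did not pass in these comparisons. Its log2 fold change was 0.18 with VX745 (adjusted p = 0.287) and 0.18 with MK25 (adjusted p = 0.242). For MK25 against VX745 it was 0.00 (adjusted p = 0.987).

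TXNRD1 fell with both. It stood at 8.40 and 8.44 log2 CPM with DMSO, at 8.09 and 8.11 with VX745 and at 7.71 in both MK25 libraries, and no library of a group reached another group. It fell by 0.32 on the log2 scale with VX745 (SE 0.058, adjusted p = 0.000672) and 1.64-fold with MK25 (log2 -0.71, SE 0.058, adjusted p = 8.54e-08). After quantile normalization the changes were -0.18 with VX745 and -0.53 with MK25, the latter under 1.5-fold. The difference between the inhibitors was -0.39 (SE 0.058, adjusted p = 0.000107).

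NQO1 was likewise in 3 separate tiers in ischemic culture, with 8.28 and 8.30 log2 CPM in DMSO, 7.96 and 8.01 with VX745 and 7.80 and 7.76 with MK25. It fell by 0.30 (SE 0.059, adjusted p = 0.00122) and by 0.51 (SE 0.059, adjusted p = 4.56e-06) on the log2 scale, under 1.5-fold. After quantile normalization the fall with VX745 was 0.16 and did not pass.

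NFE2L2 stood at 7.32 and 7.39 log2 CPM with DMSO, at 7.03 and 7.01 with VX745 and at 7.12 and 7.14 with MK25. It fell by 0.33 (SE 0.060, adjusted p = 0.000584) and by 0.23 (SE 0.060, adjusted p = 0.00565) on the log2 scale. The fall with MK25 missed the threshold without ischemic DMSO replicate 2 (log2 -0.19) and after quantile normalization (log2 -0.12).

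KEAP1 stood at 6.13 and 6.08 log2 CPM with DMSO, 5.96 and 5.93 with VX745 and 6.05 and 6.04 with MK25. Its fall of 0.16 with VX745 (SE 0.056, adjusted p = 0.0402) missed the threshold when any 1 of the 4 libraries compared, ischemic VX745 replicates 1 and 2 and ischemic DMSO replicates 1 and 2, was left out (log2 -0.19 to -0.14). Its change of -0.06 with MK25 (SE 0.056) did not pass (adjusted p = 0.405).

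Of the glutathione genes, GCLM stood at 4.62 and 4.75 log2 CPM with DMSO, at 4.77 and 4.70 with VX745, which overlap, and at 4.19 and 4.45 with MK25, both lower. Its log2 fold change was 0.05 with VX745 (SE 0.081, adjusted p = 0.699), and it fell by 0.36 with MK25 (SE 0.081, adjusted p = 0.00173), or by 0.24 without ischemic MK25 replicate 1. GCLC stood at 5.38 and 5.37 with DMSO, 5.08 and 5.12 with VX745 and 5.21 and 5.22 with MK25. It fell by 0.28 with VX745 (SE 0.070, adjusted p = 0.00705), a fall that no longer passed without ischemic VX745 replicate 1 (log2 -0.26). Its change of -0.16 with MK25 (SE 0.070) did not pass (adjusted p = 0.0773).

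SRXN1 stood at 7.29 and 7.39 log2 CPM with DMSO, at 7.35 and 7.31 with VX745 and at 7.09 and 7.03 with MK25. VX745 overlapped DMSO (log2 -0.01, SE 0.055, adjusted p = 0.886, and 0.06 after quantile normalization). With MK25 SRXN1 fell by 0.28 on the log2 scale (SE 0.055, adjusted p = 0.000566), or by 0.18 after quantile normalization. OSGIN1 stood at 5.04 and 5.18 with DMSO, 5.16 and 5.10 with VX745 and 5.21 and 5.20 with MK25. Its log2 fold changes of 0.02 (SE 0.083, adjusted p = 0.892) and 0.09 (SE 0.083, adjusted p = 0.408) did not pass.

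In regular culture VX745 left 0 of 10 members past the adjusted p, where 0.335% of all genes passed and 0.0998% were called. By an unadjusted p under 0.05, 1 of 10 members (GCLM) and 2075 of 14024 genes passed, and with voom on the recovered reads 0 of 10 members passed the adjusted p. The log2 fold changes ran from -0.19 for GCLM (SE 0.081, adjusted p = 0.278) to 0.12 for HMOX1 (SE 0.088, adjusted p = 0.555). GCLM stood at 5.74 and 5.70 log2 CPM with VX745 and at 5.88 and 5.95 with DMSO, and HMOX1 at 3.51 and 3.55 against 3.35 and 3.46. In both genes the groups did not overlap, although the differences did not pass the test.

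MK25 in regular culture had 1 member called, SQSTM1, which was higher, where 1.88% of all genes were called higher and 0.606% lower. SQSTM1 stood at 9.89 and 9.79 log2 CPM with MK25 and at 9.16 and 9.05 with DMSO, 1.66-fold higher (log2 0.73, SE 0.058, adjusted p = 1.33e-07). MRNIP rose by 0.45 on the log2 scale there (SE 0.119, adjusted p = 0.021). For MK25 against VX745 in regular culture its log2 fold change of 0.34 did not pass (adjusted p = 0.115). Set against VX745 in regular culture, MK25 gave 1.64-fold more SQSTM1 mRNA (log2 0.72, SE 0.058, adjusted p = 1.84e-07), the only member called of 10, where 1.23% of genes were called higher and 0.228% lower.

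At any size, 5 of 10 members passed with MK25 in regular culture, beside 12.2% of all genes. HMOX1 stood at 3.77 and 3.74 log2 CPM with MK25 and at 3.35 and 3.46 with DMSO, and rose by 0.35 on the log2 scale (SE 0.088, adjusted p = 0.0158), opposite to its fall with MK25 in ischemic culture. The rise in regular culture no longer passed without regular MK25 replicate 1 (log2 0.33) and without regular DMSO replicate 1 (log2 0.29). The summed CPM of the 8 hypoxia genes was 2996 to 3049 with MK25 and 1722 to 1992 with DMSO in regular culture, and 6 of the 8 were called higher. Their part in the changes of HMOX1 and SQSTM1 was not tested.

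GCLM fell with MK25 in regular culture too, from 5.88 and 5.95 log2 CPM to 5.40 and 5.38 (log2 -0.52, SE 0.081, adjusted p = 0.000364). SRXN1 fell from 7.08 and 7.15 to 6.89 and 6.86 (log2 -0.24, SE 0.055, adjusted p = 0.00858), a fall that no longer passed without regular DMSO replicate 2 (log2 -0.21). OSGIN1 fell from 4.34 and 4.11 to 3.90 and 3.87 (log2 -0.34, SE 0.083, adjusted p = 0.0122). That fall no longer passed without regular DMSO replicate 1 (log2 -0.23) and without regular MK25 replicate 2 (log2 -0.33). The other 5 members, NFE2L2, KEAP1, NQO1, GCLC and TXNRD1, had log2 fold changes between -0.13 and 0.11 and did not pass.

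**Figure D3:**
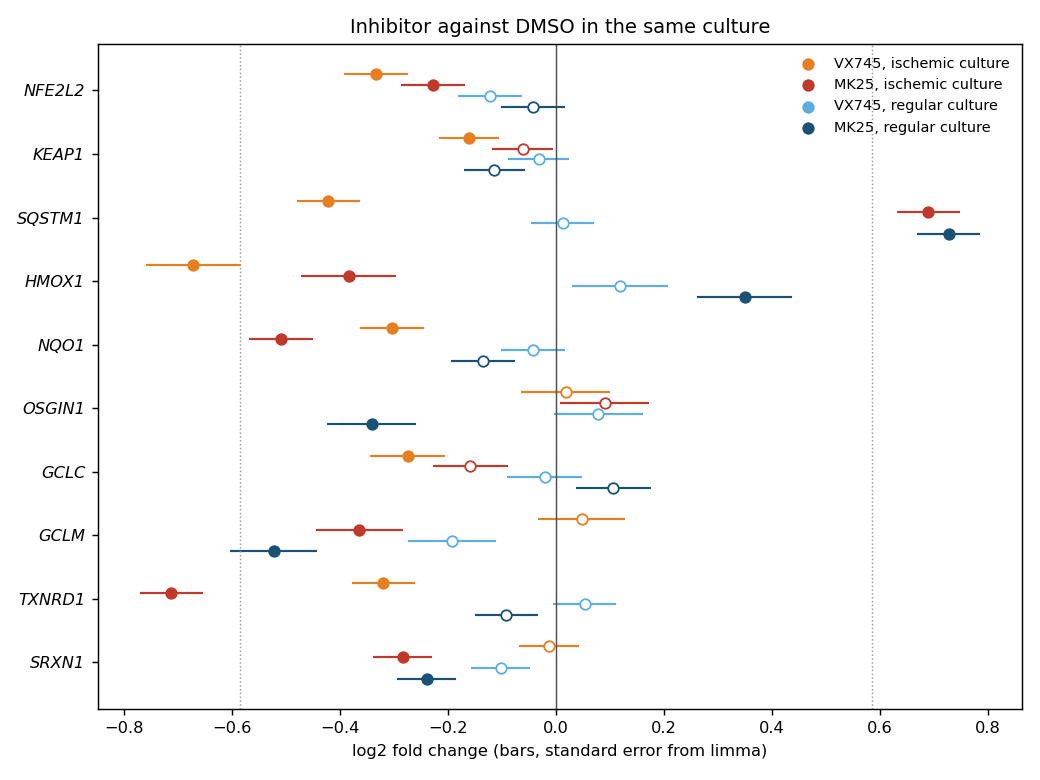
Log2 fold change of VX745 and MK25 against DMSO in ischemic and in regular culture for the 10 genes (points; bars, standard error; 2 libraries per group). Filled points passed an adjusted p of 0.05, and dotted lines mark 1.5-fold. SQSTM1 is at 0.69 and 0.73 with MK25 in ischemic and regular culture, and at -0.42 with VX745 in ischemic culture.

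The third question was whether an inhibitor acted differently in the 2 cultures, which the interaction of inhibitor and culture tests. For VX745, 3 of 10 members passed (HMOX1, TXNRD1 and SQSTM1), where 11.8% of all genes passed. The effect in ischemic minus that in regular culture was -0.79 for HMOX1 (SE 0.125, adjusted p = 0.00115), -0.44 for SQSTM1 (SE 0.083, adjusted p = 0.00375) and -0.37 for TXNRD1 (SE 0.082, adjusted p = 0.00874), on the log2 scale. After quantile normalization SQSTM1 (log2 -0.17) and TXNRD1 (log2 -0.25) no longer passed, and TXNRD1 did not pass without a variance trend either (log2 -0.37). NQO1 did not pass in the fit reported, but passed under 3 of 7 other settings, with an adjusted p down to 0.0356.

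For MK25, 4 of 10 members passed (HMOX1, TXNRD1, NQO1 and OSGIN1), where 24.4% of all genes passed. The difference of the effects was -0.73 for HMOX1 (SE 0.125, adjusted p = 0.000486), -0.62 for TXNRD1 (SE 0.082, adjusted p = 5.21e-05), -0.38 for NQO1 (SE 0.084, adjusted p = 0.00376) and 0.43 for OSGIN1 (SE 0.117, adjusted p = 0.0124). Without ischemic DMSO replicate 1 the difference for OSGIN1 was 0.37 and did not pass, and after quantile normalization that for NQO1 was -0.22 and did not pass. For SQSTM1, which MK25 raised in both cultures, the difference was -0.04 (SE 0.083, adjusted p = 0.771) and turned to 0.18 after quantile normalization, which did not pass.

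The same libraries give the ischemic change in the presence of each inhibitor. Between VX745-treated cultures, 3 of 10 members were called, SQSTM1 and OSGIN1 higher and GCLM lower, where 18.5% of genes were called higher and 14.5% lower. After quantile normalization SQSTM1 (log2 0.52) was no longer past 1.5-fold there. Between MK25-treated cultures the called members were again SQSTM1, OSGIN1 and GCLM, in the same directions, where 17.7% of genes were called higher and 15% lower.

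HMOX1, 1.92-fold higher in ischemic culture with DMSO, differed there by a log2 fold change of 0.15 with VX745 (SE 0.088), which did not pass (adjusted p = 0.146). With MK25 it differed by 0.21 (SE 0.088, adjusted p = 0.0484), which was lost when any 1 of the 4 libraries compared was left out (ischemic MK25 and regular MK25, replicates 1 and 2, log2 0.19 to 0.22), and under 5 of 7 other settings, with an adjusted p of up to 0.0757. TXNRD1 differed by 0.13 with VX745 (SE 0.058, adjusted p = 0.0566) and by -0.12 with MK25 (SE 0.058, adjusted p = 0.0839). Neither passed in the fit reported. The difference with VX745 passed under 1 of 7 other settings, with an adjusted p down to 0.0273. That with MK25 passed under 2 of 7, with an adjusted p down to 0.00722 and log2 values down to -0.19.

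SQSTM1 rose in ischemic culture by 0.67 on the log2 scale with VX745 (SE 0.058, adjusted p = 1.98e-08) and by 1.07 with MK25 (SE 0.058, adjusted p = 4.81e-11). OSGIN1 rose by 0.83 (SE 0.083, adjusted p = 1.05e-07) and by 1.32 (SE 0.083, adjusted p = 2.64e-10). GCLM fell by 0.99 (SE 0.081, adjusted p = 8.56e-09) and by 1.07 (SE 0.081, adjusted p = 3.21e-09). KEAP1 fell by 0.47 with VX745 (SE 0.056, adjusted p = 1.09e-06) and by 0.29 with MK25 (SE 0.056, adjusted p = 0.000236), under 1.5-fold.

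Among the smaller changes between treated cultures, NFE2L2 rose by 0.25 with VX745 (adjusted p = 0.00123) and by 0.28 with MK25 (adjusted p = 0.000522), on the log2 scale. SRXN1 rose by 0.32 (adjusted p = 6.58e-05) and by 0.18 (adjusted p = 0.00705), the second not passing without ischemic MK25 replicate 1 (log2 0.15). GCLC fell by 0.26 (adjusted p = 0.00348) and by 0.27 (adjusted p = 0.00253). NQO1 fell by 0.26 with MK25 (adjusted p = 0.00107), and its fall of 0.14 with VX745 (adjusted p = 0.0441) was lost without ischemic VX745 replicate 1 (log2 -0.12), ischemic VX745 replicate 2 (log2 -0.16) or regular VX745 replicate 1 (log2 -0.06) and without a variance trend, and was -0.22 without regular VX745 replicate 2 and -0.25 after quantile normalization.

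**Figure D4:**
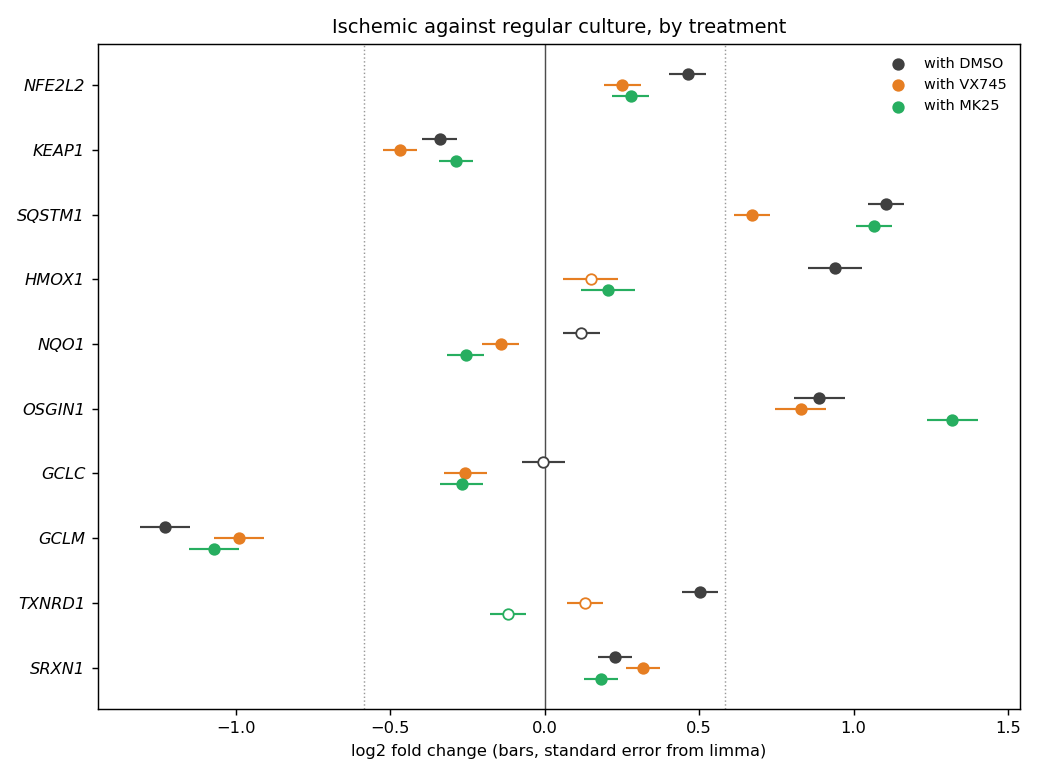
Log2 fold change of ischemic against regular culture in cells given DMSO, VX745 or MK25 (points; bars, standard error; 2 libraries per group). Filled points passed an adjusted p of 0.05, and dotted lines mark 1.5-fold. HMOX1 is at 0.94 with DMSO, 0.15 with VX745 and 0.21 with MK25, and GCLM lies between -1.23 and -0.99 in all 3.

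The inhibitors set against each other in ischemic culture also differed for smaller changes. With MK25, GCLM was lower than with VX745 by 0.41 on the log2 scale (SE 0.081, adjusted p = 0.0015), and SRXN1 by 0.27 (SE 0.055, adjusted p = 0.00192). The difference was 0.29 for HMOX1 (SE 0.088, adjusted p = 0.03) and -0.21 for NQO1 (SE 0.059, adjusted p = 0.0216), and both were lost when any 1 of the 4 libraries compared was left out (ischemic MK25 and ischemic VX745, replicates 1 and 2, log2 0.27 to 0.31 for HMOX1 and -0.23 to -0.19 for NQO1). In regular culture OSGIN1 was lower with MK25 by 0.42 (SE 0.083, adjusted p = 0.00432), and the difference of -0.33 for GCLM (SE 0.081, adjusted p = 0.0207) was lost when any 1 of the 4 libraries compared was left out (regular MK25 and regular VX745, replicates 1 and 2, log2 -0.35 to -0.31).

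Around these 10 genes, 81 other genes of the pathway were listed by role, of which the first experiment measured 74 and the second 75. In ischemic culture 29 were called higher and 16 lower in untreated cells, and 23 higher and 13 lower with DMSO. In ischemic culture VX745 had 3 called higher and 1 lower, and MK25 3 higher and 4 lower. In regular culture MK25 had 4 called higher and 0 lower by limma and by voom, and VX745 had 0 called by either, with 22 of 75 at an unadjusted p under 0.05. The shares of all genes called are those given above for each comparison. Counts at an unadjusted p under 0.05 in ischemic culture, given below, have no such share beside them. They are not read as a result about a list. At the adjusted p and any size in ischemic culture, 14% of all genes rose and 14.9% fell with VX745, and 19.8% and 22% with MK25.

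The genes that act on NRF2 or share its partners held 11 members, of which 5 were called higher and 1 lower in ischemic untreated cells, and 4 higher and 2 lower with DMSO. MAFF, a small MAF protein, rose by 2.11 (adjusted p = 1.67e-10) and 1.95 (adjusted p = 2.32e-13) on the log2 scale. BACH1, the repressor, rose by 1.94 (adjusted p = 5.49e-10) and 1.66 (adjusted p = 2.23e-12). MAFG, another small MAF, rose by 0.96 (adjusted p = 1.15e-07) and 0.32 (adjusted p = 0.00017).

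CUL3, the scaffold of the ligase that KEAP1 serves, fell by 0.25 in untreated cells (adjusted p = 0.0128) and by 0.98 with DMSO (adjusted p = 2.43e-10), on the log2 scale. With VX745 in ischemic culture 1 of the 11 was called, BACH2, a repressor related to BACH1, which rose by 0.94 (adjusted p = 0.000206). With MK25 0 of 11 were called by limma or voom, and 8 had an unadjusted p under 0.05. At any size 7 passed the adjusted p, where 19.8% of all genes rose and 22% fell. Among the 7 were MAFF at -0.46 (adjusted p = 0.000116) and MAFG at 0.41 (adjusted p = 5.2e-05).

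Of 12 genes listed for autophagy or for binding of KEAP1, 9 were called higher and 2 lower in ischemic untreated cells, and 8 higher and 2 lower with DMSO. The median log2 fold change of the list was 1.18 and 1.06. Those called higher with DMSO were TRIM16, NBR1, TAX1BP1, CALCOCO2, MAP1LC3B, GABARAPL1, OPTN and SESN2. TRIM16 has a near copy, TRIM16L, with which it may share reads. TRIM16L is annotated as a transcribed pseudogene and is among the 9 called higher in untreated cells. SESN2, sestrin 2, which links p62 with the breakdown of KEAP1, rose by 2.45 with DMSO (adjusted p = 1.66e-14) on the log2 scale and fell by 1.57 with MK25 in ischemic culture (adjusted p = 2.57e-10), while SQSTM1 rose with MK25. AMER1, a KEAP1-binding protein, fell by 0.94 in ischemic culture with DMSO (adjusted p = 2.47e-06) and rose by 0.59 with MK25 in ischemic culture (adjusted p = 0.000981).

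Of 13 glutathione genes measured, 4 were called higher and 2 lower in ischemic untreated cells, and 3 higher and 2 lower with DMSO. SLC7A11, the cystine importer, rose by 2.04 (adjusted p = 6.83e-09) and 1.40 (adjusted p = 3.68e-10) on the log2 scale, in the same libraries in which GCLM fell. GLRX, glutaredoxin, rose by 2.57 with DMSO (adjusted p = 1.48e-12), and CHAC2, which degrades glutathione, fell by 1.62 (adjusted p = 7.46e-09). In ischemic culture SLC7A11 fell by 0.37 with VX745 (adjusted p = 0.00652) and by 0.84 with MK25 (adjusted p = 2.16e-06).

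Of 7 thioredoxin and peroxiredoxin genes, 0 were called higher and 5 lower in ischemic untreated cells, and 0 higher and 3 lower with DMSO, where TXNRD1 and SRXN1 rose. PRDX1, a peroxiredoxin, stood at a mean of 6.96 log2 CPM in ischemic and 8.66 in regular untreated cells, and fell by 1.70 (adjusted p = 8.44e-10). With DMSO it fell by 1.17 (adjusted p = 3.9e-12). TXN, thioredoxin, the substrate of TXNRD1, fell by 0.80 (adjusted p = 1.27e-06) and 0.37 (adjusted p = 0.000158) on the log2 scale. TXNIP, which binds thioredoxin and is driven by glucose, fell by 3.88 with DMSO (adjusted p = 1.69e-16). With either inhibitor in ischemic culture 0 of the 7 were called by limma or voom, and 5 had an unadjusted p under 0.05. PRDX1 fell by 0.34 with VX745 (adjusted p = 0.000216) and by 0.42 with MK25 (adjusted p = 1.36e-05).

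Of 8 genes that supply NADPH or its precursors, 3 were called higher in ischemic culture in both experiments, ME1, MTHFD2 and NAMPT, and 0 lower. MTHFD2, a mitochondrial folate enzyme, rose by 2.33 with DMSO on the log2 scale (adjusted p = 1.74e-15) and fell by 0.87 with MK25 in ischemic culture (adjusted p = 1.97e-08). NAMPT, which makes NAD, fell by 0.91 with VX745 in ischemic culture (adjusted p = 7.76e-08). IDH1 rose by 0.73 with MK25 in ischemic culture (adjusted p = 5.99e-08).

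Of 8 heme and iron genes measured, 4 were called higher and 2 lower in ischemic untreated cells, and 3 higher and 2 lower with DMSO. FTH1, ferritin heavy chain, which has many processed copies in the genome, rose by 0.70 with DMSO (adjusted p = 2.02e-07), and FLVCR1, a membrane transporter, fell by 0.82 (adjusted p = 4.9e-08), on the log2 scale. With VX745 or MK25 in ischemic culture 0 of the 8 were called by limma or voom, and 4 and 3 had an unadjusted p under 0.05.

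The first experiment measured 15 detoxification and efflux genes, and the second 16. In ischemic culture 4 were called higher and 4 lower in untreated cells, and 2 higher and 2 lower with DMSO. ABCC1, an exporter of glutathione conjugates, rose by 0.79 with DMSO (adjusted p = 0.00241), and AKR1B1, aldose reductase, fell by 0.64 (adjusted p = 1.91e-08), on the log2 scale. With VX745 in ischemic culture 1 was called higher, and with MK25 0 were called by limma or voom, with 8 of 16 at an unadjusted p under 0.05. With MK25 in regular culture 2 were called higher, AKR1C1 and AKR1C3, which are close copies that may share reads.

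**Figure D5:**
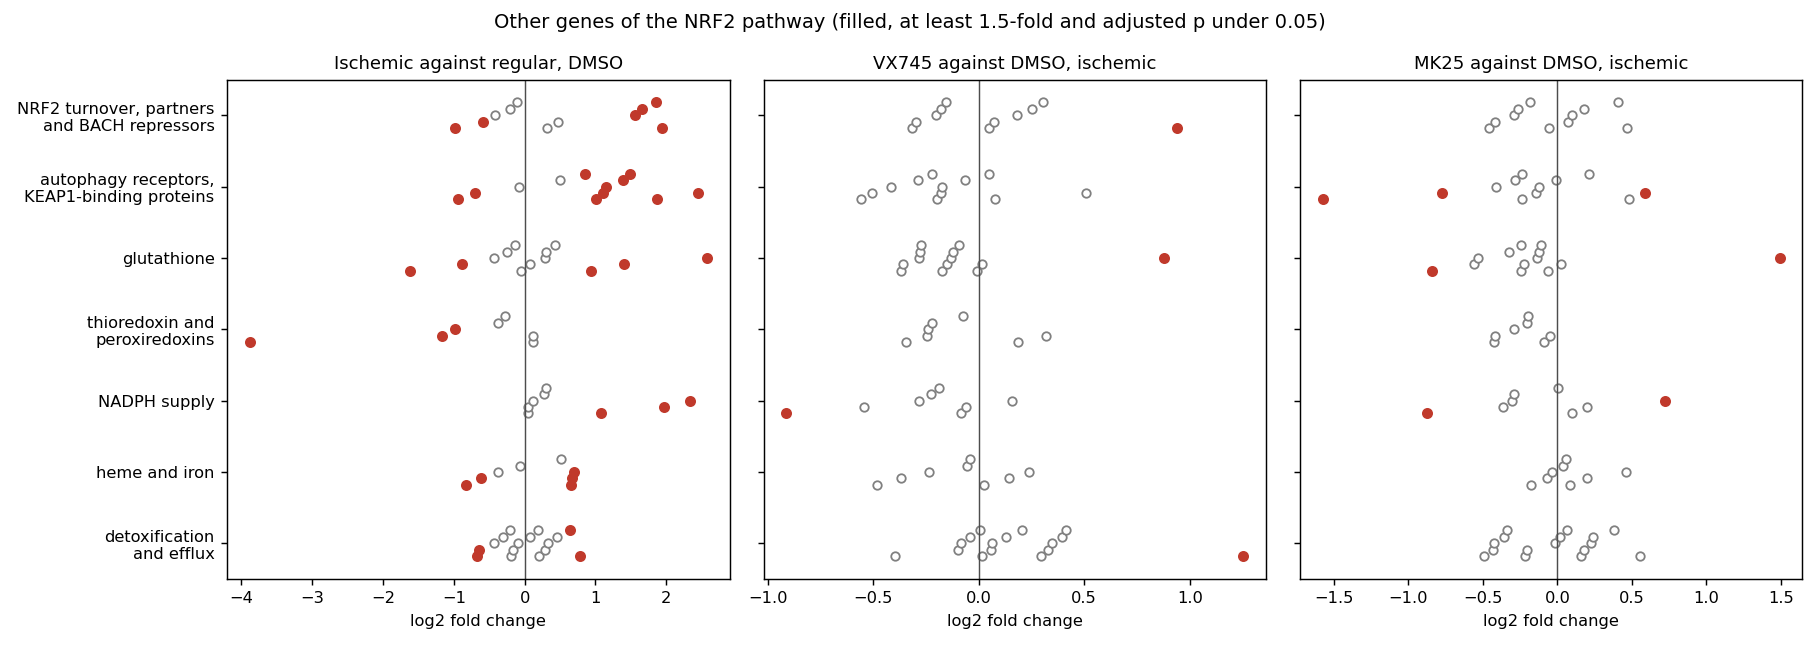
Log2 fold change of the other genes of the pathway, grouped by role, for ischemic against regular culture with DMSO (left), VX745 against DMSO in ischemic culture (middle) and MK25 against DMSO in ischemic culture (right). Each point is a gene, filled where called, and the horizontal scales differ. The point farthest left in the left panel is TXNIP at -3.88, and that in the right panel is SESN2 at -1.57.

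Over the 12 libraries of the second experiment, which share their groups and so do not give independent points, the levels of some members ran together. Pearson's r was 0.914 for KEAP1 with GCLM, 0.886 for NFE2L2 with HMOX1 and -0.918 for GCLM with SQSTM1. Among 10053 genes with a mean log2 CPM of at least 3, the ones most like HMOX1 were EIF3D (r = 0.973), GOLGA7 (0.967) and ZNF140 (0.951). The ones most like SQSTM1 were PTGES (0.987), WBP2 (0.983) and TBC1D17 (0.981). Those most like GCLM were KIF5C (0.987), E2F2 (0.986) and ZFAND5 (0.986). These values describe the libraries, and no test was made.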

How the data were processed

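The authors trimmed the reads, aligned them with HISAT2 to GRCh38 and counted them, and the deposited values are log2 normalized CPM for each gene and library. The authors' notes also name edgeR. The counting program and the patch of the build are not given in the sources used here. The deposited values were used with no further pseudocount. Unlogged, 100% of them lie on whole reads (tolerance 0.05 of a read, tested under 1000 reads), which gave the depth. Column names ending in 1 and 2 were taken as replicates 1 and 2.

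Each table was fitted in limma 3.58.1 (R 4.3.3) with 1 mean per group, a trend of variance on mean and two-sided p-values adjusted by Benjamini-Hochberg. The methods' test for counts was not used. The main fit took the deposited log2 values, and voom on the recovered reads was 1 of the 9 alternatives. The fit was tested on simulated data. Promoters were read from GRCh38 at GENCODE v44 MANE starts. The members and lists were chosen with earlier results of these data known. Every member is named, and of each other list the largest called rise and fall (mean log2 of at least 1) and SLC7A11, PRDX1, TXN, BACH1, MAFF and MAFG. Some genes that the rule selects are not reported here.

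In 9 alternatives, and with each library left out in turn, one choice was changed at a time.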

Additional observations from a re-analysis of the deposited data

Results flagged for a closer look

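In these results the effect of an inhibitor differed between ischemic and regular culture by the interaction test in limma (adjusted p under 0.05). Values are the log2 effect in ischemic minus that in regular culture. For VX745 the difference was -0.79 for HMOX1, -0.37 for TXNRD1 and -0.44 for SQSTM1. HMOX1 fell with VX745 in ischemic culture, and in regular culture its log2 fold change of 0.12 did not pass. For MK25 the difference was -0.73 for HMOX1, which fell in ischemic and rose in regular culture, -0.38 for NQO1, -0.62 for TXNRD1 and 0.43 for OSGIN1. OSGIN1 fell with MK25 in regular culture, and in ischemic culture its log2 fold change of 0.09 did not pass. Groups hold 2 libraries, so single libraries were not tested as outliers.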

How the results depend on the processing

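Of 830 fold changes of members under other settings, 796 kept their direction and side of the threshold, 20 no longer passed, 8 now passed and 6 turned direction. With 1 library left out, 502 of 560 did so, 32 no longer passed, 5 now passed and 21 turned direction. Every value that turned passed neither in the fit reported nor in the other. The 6 came with quantile normalization, NQO1 for ischemia with DMSO (-0.13), SRXN1 with VX745 in ischemic culture (0.064), GCLC (0.0015) and SQSTM1 (-0.010) with VX745 in regular culture, and SRXN1 (0.058) and SQSTM1 (0.18) for the interaction of MK25. The ranges below cover all fits with 1 library left out, turned or not, for each comparison in which a value turned. The log2 values ran from -0.10 to 0.094 for GCLC for ischemia with DMSO. With VX745 in ischemic culture they ran from -0.015 to 0.11 for GCLM, -0.065 to 0.039 for SRXN1 and -0.048 to 0.085 for OSGIN1. With VX745 in regular culture they ran from -0.072 to 0.0080 for KEAP1, -0.12 to 0.036 for NQO1, -0.12 to 0.076 for GCLC, -0.038 to 0.14 for TXNRD1, -0.042 to 0.068 for SQSTM1 and -0.035 to 0.19 for OSGIN1. With MK25 in regular culture they ran from -0.12 to 0.036 for NFE2L2. For the interactions they ran from -0.17 to 0.053 for OSGIN1 with VX745, and from -0.10 to 0.0073 for SRXN1 and -0.093 to 0.016 for SQSTM1 with MK25. No share of all genes at any size was counted for ischemia with VX745 or MK25, or for MK25 against VX745. Member counts at any size there are therefore not read as a result about the members. With no fold threshold the called members were 6 higher and 2 lower for ischemia with DMSO, 7 higher and 2 lower for ischemia in untreated cells, 7 with each inhibitor in ischemic culture and 5 with MK25 in regular culture. They were 8 and 9 for ischemia with VX745 and MK25, and 6 and 3 for MK25 against VX745 in ischemic and regular culture. With at least 2-fold they were 1 higher for ischemia with DMSO. They were 0 with VX745 or MK25 in ischemic culture and with MK25 in regular culture. They were also 0 for ischemia with VX745 and for MK25 against VX745 in regular culture. No share of all genes was counted at 2-fold, so these counts are not read as a result about the members. After quantile normalization 1 was called with MK25 in ischemic culture (SQSTM1), and 1 passed for the interaction of VX745 (HMOX1), while NFE2L2 for ischemia in untreated cells (log2 0.51) and SQSTM1 for ischemia with VX745 (log2 0.52) were under 1.5-fold. The cause was not tested. After quantile normalization 629 of all 14024 genes were called higher and 486 lower with MK25 in ischemic culture. For the interaction of VX745, 590 passed as higher and 436 as lower.

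Quantile normalization also moved the share of higher genes among all called from 82.8% to 62.6% with VX745 and from 72.6% to 56.4% with MK25 in ischemic culture. With VX745 in regular culture, genes called were 14 in limma and 5 with voom.

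Leaving out 1 library gave 4 to 5 members called higher for ischemia in untreated cells (4 without regular replicate 2), 3 to 4 with DMSO (4 without regular DMSO replicate 1), 3 to 4 for the interaction of VX745 and 3 to 5 for that of MK25, and 1, 1, 1, 2, 0, 1, 3, 3, 1 and 1 members in the other counts.

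Same-numbered replicates share only a number. The correlation of their deviations was 0.185 in the first experiment and -0.104 to 0.178 in the second. With the replicate block, 5 members were called higher for ischemia in untreated cells and 3 with DMSO, as without it, and the rise of HMOX1 between MK25-treated cultures (log2 0.21) no longer passed. That rise was also lost with only genes of at least 1 CPM, library medians made equal, quantile normalization and only the groups compared, and passed in 2 of 7 refits.

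Every member had at least 246 reads in every library, and each group holds 2 libraries.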
